A study of Mus musculus with 6 samples.

Results

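Pericytes are the cells that wrap around capillaries, and vascular smooth muscle cells form the contractile coat of larger vessels. Together they are called mural cells. The 10 genes described here (Rgs5, Pdgfrb, Pdgfb, Cspg4, Notch3, Kcnj8, Abcc9, Mcam, Acta2 and Tagln) were taken by symbol from a table of 28539 loci. Each matched 1 entry, and none of these entries carried another symbol. The coordinates given for Tagln, Pdgfb and Abcc9 are shared with entries of other genes. RNA-seq measured polyadenylated RNA of whole corneas from female C57BL/6J mice aged 6 to 8 weeks, in 3 groups of 2 samples. The groups are untreated corneas (day 0), corneas 5 days after an alkali burn, and corneas 15 days after it, a time the labels describe as regression. The sources used here give neither the strength of the alkali nor whether a sample is 1 animal or a pool.

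The values are the authors' FPKM (fragments per kilobase of transcript, scaled to the number of mapped fragments), with 1 value standing for both samples of a group. The range in brackets after a value is the authors' own interval for that group, whose confidence level is not given in the sources used here. The table holds 0 columns of individual samples. The scatter of replicates is therefore not shown, and the comparisons below carry neither a test nor a p-value. Read depth is unknown. A gene is called apart between groups when FPKM reached 1 in the higher group, the ratio of (FPKM + 1) was at least 2-fold, which is a log2 ratio of 1, and the intervals did not overlap. All log2 ratios below are on that scale, which understates differences of low genes, and folds are plain ratios of FPKM.

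The healthy cornea has no blood vessels of its own, and the nearest ones lie at its rim, the limbus. When vessels sprout, endothelial cells secrete the growth factor PDGF-B, encoded by Pdgfb, and mural cells that carry its receptor, encoded by Pdgfrb, follow the sprout and coat it. Notch3 is the receptor through which mural cells sense Notch ligands on neighbouring cells, and Acta2 and Tagln encode proteins of the contractile machinery that smooth muscle shares with myofibroblasts, the contractile fibroblasts of wounds. None of these genes is expressed by mural cells alone.

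The promoters of the members called apart (Acta2 and Mcam), of the pericyte gene Rgs5, and of Notch3, whose value went the other way, are printed here so that the values can be set beside the sequence. They are RefSeq sequences on GRCm38.p6 and run from 250 bases before to 50 bases after the annotated start, on the strand of the gene. Positions below are counted from the start used for the window, and other annotations can differ. The measured Acta2 stretch runs to base 34255620 and the GENCODE M21 gene to 34255590, so most of the Acta2 window lies inside both. Such a window was given for 7 of the 10 genes. Capitals mark matches, on either strand, to the CArG box that binds serum response factor (allowing 1 G or C among its 6 central bases), to the TEAD core CATTCC and to the RBPJ core TGGGAA, as found by a search of both strands.
Acta2 promoter, chr19:34255324-34255623, minus strand: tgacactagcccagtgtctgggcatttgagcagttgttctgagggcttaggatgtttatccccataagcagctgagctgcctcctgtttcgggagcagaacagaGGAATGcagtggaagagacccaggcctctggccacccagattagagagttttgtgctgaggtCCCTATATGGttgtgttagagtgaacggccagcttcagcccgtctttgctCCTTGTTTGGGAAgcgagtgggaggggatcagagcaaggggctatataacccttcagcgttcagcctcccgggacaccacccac
Mcam promoter, chr9:44134408-44134707, plus strand: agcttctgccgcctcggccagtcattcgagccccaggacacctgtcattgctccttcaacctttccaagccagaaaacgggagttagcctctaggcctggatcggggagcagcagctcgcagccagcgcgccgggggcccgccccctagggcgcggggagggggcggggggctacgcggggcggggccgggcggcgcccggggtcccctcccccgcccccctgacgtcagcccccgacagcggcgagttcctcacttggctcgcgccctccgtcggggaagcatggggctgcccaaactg
Rgs5 promoter, chr1:169655251-169655550, plus strand: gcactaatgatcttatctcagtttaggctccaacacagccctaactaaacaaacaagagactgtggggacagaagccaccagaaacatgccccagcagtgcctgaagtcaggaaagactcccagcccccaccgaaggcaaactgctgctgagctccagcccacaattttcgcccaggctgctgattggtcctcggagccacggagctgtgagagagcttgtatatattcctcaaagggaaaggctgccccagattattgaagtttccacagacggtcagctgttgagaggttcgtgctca
Notch3 promoter, chr17:32166841-32167140, minus strand: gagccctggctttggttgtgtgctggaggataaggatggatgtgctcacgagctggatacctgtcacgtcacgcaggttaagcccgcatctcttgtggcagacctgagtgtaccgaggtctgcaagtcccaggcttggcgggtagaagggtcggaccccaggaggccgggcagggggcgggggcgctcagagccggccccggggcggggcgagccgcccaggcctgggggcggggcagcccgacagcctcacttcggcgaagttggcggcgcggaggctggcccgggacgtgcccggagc

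The Acta2 window held 2 CArG boxes with 1 G or C each, at bases -84 to -75 and -34 to -25 from the start, 1 TEAD core at -146 to -141 and 1 RBPJ core at -27 to -22, which overlaps the nearer CArG box by its first bases. No CArG box without G or C in its centre was found in the 7 windows. Of 32851 promoters of this length, 8.50% held a CArG box with 1 G or C, 1.63% one with none, 14.7% a TEAD core and 25.6% an RBPJ core. The Mcam, Rgs5, Notch3 and Cspg4 windows held none of these motifs. Abcc9 held an RBPJ core that overlaps a TEAD core, and Kcnj8 held 1 RBPJ core. These matches describe letters in the window and not binding.

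Most of the 10 members had higher values in burned corneas. At day 5, 9 of the 10 members had a higher FPKM than at day 0 and 1, Notch3, a lower one, against 6993 higher values among 15576 loci tested. Acta2 and Mcam were higher and apart, and no member was lower and apart, so that 2 of 10 were called higher where 3.42% of all loci tested were, and 0 of 10 lower where 2.5% were. The members' median log2 ratio was 1.09, against -0.09 over all loci tested. At day 15 the same 2 genes were higher and apart, 9 members again had higher values than at day 0, and the median was 0.93, against -0.10 over all loci tested. In that comparison 6548 of 15186 loci tested had higher values, and 2.91% were called higher and 1.81% lower. In these whole tissue samples, a larger number of cells of a type and more RNA per cell cannot be told apart.

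**Figure D1:**
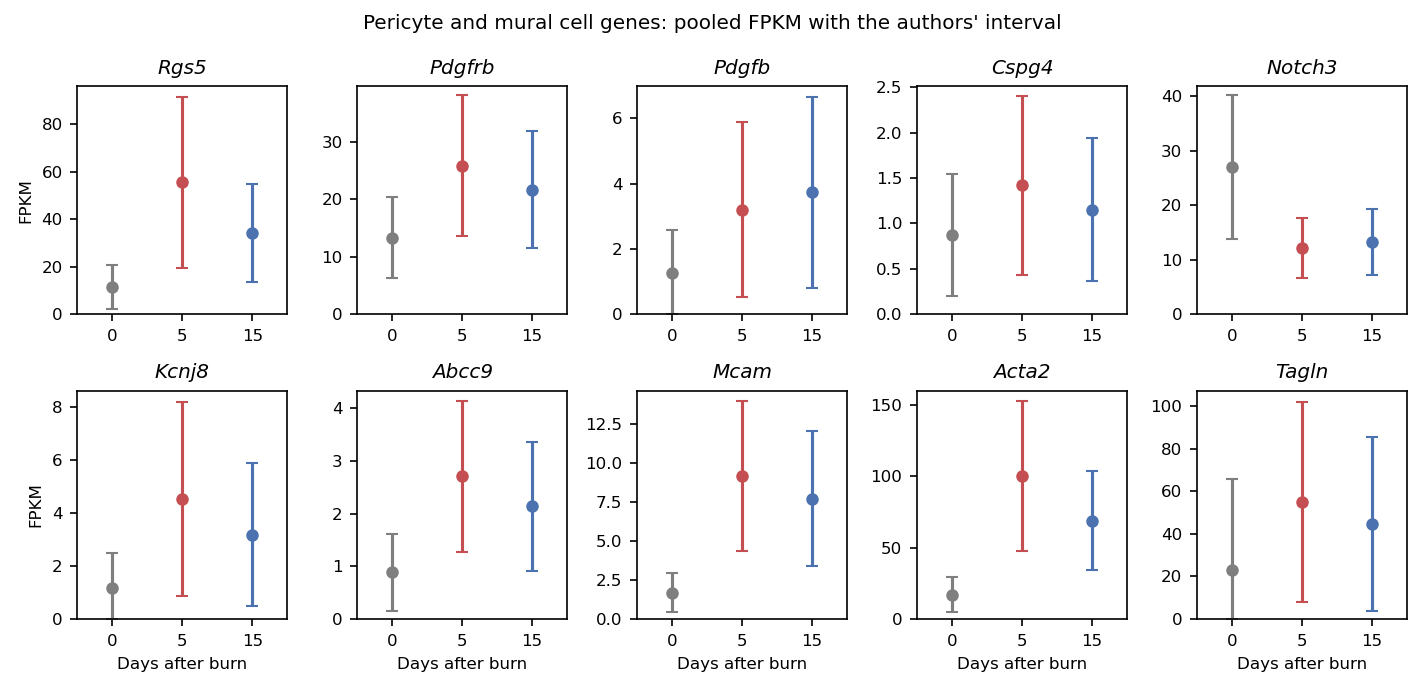
FPKM (y axes, linear, each from 0) of the 10 genes in corneas 0, 5 and 15 days after the burn (x axes, day 0 untreated). Points are the authors' pooled value of 2 samples and bars the authors' interval. For Acta2 and Mcam the bars of days 5 and 15 lie wholly above that of day 0. Notch3 is the only gene whose points lie lower at days 5 and 15.

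Acta2 encodes smooth muscle alpha-actin (chromosome 19, 34240336 to 34255620 on mm10, minus strand). It stood at 17.1 FPKM (4.93 to 29.3) at day 0, 99.9 (47.4 to 152) at day 5 and 68.9 (34.3 to 103) at day 15. Both burn groups lay above the whole day 0 interval and overlapped each other. The value was 5.83-fold higher at day 5 than at day 0, a difference of 82.7 FPKM with an interval of 28.9 to 137, and 4.02-fold higher at day 15. Here and below, the interval of a difference combines the authors' intervals of both groups and treats the groups as independent. Among the actin genes, which are close in sequence, Acta2 was the one higher and apart at day 5, while Actg2, the gamma-actin of visceral smooth muscle, was at 0.609, 3.54 and 3.70 FPKM over the 3 times and was higher and apart at day 15 alone. The skeletal muscle actin Acta1 was at 14.2, 9.99 and 2.51 FPKM, and the cytoplasmic actin Actb was at 698, 757 and 880. Of the 1986 stretches of 50 bases in the longest coding Acta2 transcript, 0.352% also occur in transcripts of other genes.

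Tagln encodes transgelin, an actin-binding protein of smooth muscle. Its FPKM was 23.2 (0 to 65.6) at day 0, 55 (8.02 to 102) at day 5 and 44.7 (3.86 to 85.6) at day 15. All 3 intervals overlapped, and it was not apart in any comparison. The difference between days 5 and 0 was 31.8 FPKM, with an interval of -31.5 to 95.0. Its intervals were the widest among the members relative to the value, with the upper bound 182% above it at day 0. The stretch given for Tagln (chromosome 9, 45838529 to 45936058) is 15.1 times the span of the annotated gene. It is that long because it is shared with the entries of Bace1, Pcsk7 and Rnf214. In addition, 67.9% of the exon bases of Tagln overlap exons of Pcsk7 or of the gene Gm48529. The labels give no strandedness, so that reads of these genes cannot be told apart there. Its relative Tagln2, found in many cell types, was higher and apart at day 5, at 316 FPKM against 111 at day 0.

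Rgs5 encodes a regulator of G protein signalling that is among the most used pericyte markers (chromosome 1, 169655501 to 169695806). It stood at 11.5 FPKM (2.33 to 20.7) at day 0, 55.5 (19.4 to 91.6) at day 5 and 34.2 (13.4 to 54.9) at day 15. The day 5 interval began just below the end of the day 0 interval, so that Rgs5 was not apart at a log2 ratio of 2.18, a 4.83-fold difference. Its difference of 44.0 FPKM had an interval of 6.80 to 81.2 at day 5, and that of 22.7 FPKM at day 15 one of -0.0247 to 45.4. After rescaling the groups by the median ratio or by the upper quartile, Rgs5 was apart at day 5, with log2 ratios of 2.28 in both. Its neighbour and closest relative Rgs4 was at 0.390, 0.666 and 0.606 FPKM over the 3 times.

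Of 9 small RGS genes of the same subfamily, Rgs5 included, 3 were higher and apart at day 5. These were Rgs1, a gene of activated lymphocytes and myeloid cells (25.8-fold), Rgs16 (7.79-fold) and Rgs2 (6.22-fold), and 3 of the 9 were below the filter. At day 15 Rgs1 alone was called, at 15.6 FPKM against 0.372 at day 0. The group's medians were 1.74 at day 5 and 1.22 at day 15.

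Pdgfrb, the receptor for PDGF-B on mural cells and also on many fibroblasts (chromosome 18, 61045148 to 61085067), had 13.3 FPKM (6.25 to 20.4) at day 0, 25.8 (13.6 to 38.1) at day 5 and 21.7 (11.5 to 31.9) at day 15. The 3 intervals overlapped. The difference between days 5 and 0 was 12.5 FPKM, with an interval of -1.68 to 26.7. Pdgfb, its ligand (chromosome 15, 79995876 to 80014808), was far lower, at 1.26 (0 to 2.58), 3.20 (0.527 to 5.88) and 3.73 (0.805 to 6.66). It was 1 of 2 members whose value at day 15 lay above that at day 5, and its intervals overlapped at all times.

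Among the 7 PDGF ligand and receptor genes, the members called were outside the Pdgfb and Pdgfrb pair. Pdgfc, a ligand of the alpha receptor, was 4.31-fold higher and apart at day 5, at 9.08 FPKM (4.44 to 13.7) against 2.11 (0.284 to 3.94) at day 0. Pdgfra, the alpha receptor of fibroblasts, was 2.77-fold higher and apart at day 5, at 25.1 (14.1 to 36.1) against 9.05 (4.41 to 13.7) at day 0, and at 15.0 (7.63 to 22.3) at day 15. Pdgfa, which is expressed by many epithelia, was at 36.7, 27.5 and 35.6 FPKM over the 3 times, from 8.60 to 29.1 times the Pdgfb value of the same group. None of the 7 was apart at day 15. The medians of these genes were 0.90 at day 5 and 0.67 at day 15.

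Notch3 (chromosome 17, 32120577 to 32166864) was the member with the highest FPKM at day 0 and the only one with lower values after the burn. It had 27.0 FPKM (13.8 to 40.2) at day 0, 12.2 (6.66 to 17.7) at day 5 and 13.2 (7.19 to 19.3) at day 15. The day 0 interval overlapped the other two, and Notch3 was not apart. It was 2.22-fold lower at day 5 than at day 0, and the difference of -14.9 FPKM had an interval of -29.1 to -0.559, which leaves out 0. Its log2 ratio at day 5 was -1.09, and after rescaling by the median ratio or by the upper quartile it was -0.992 and -0.997, short of the minimum of 1 in size. At day 15 that interval, -28.3 to 0.723, held 0. Exons of the gene Gm17276 cover 6.03% of its exon bases.

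By this second rule, with the same fold and the interval of the difference leaving out 0, 3 of 10 members were higher at day 5 (Acta2, Mcam and Rgs5) and 1 was lower (Notch3), where 5.62% of all loci were higher and 4.76% lower. At day 15, 2 members were higher and 0 lower, where 4.77% and 3.26% of all loci were.

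Of 14 Notch ligands, receptors and targets, 13 passed the filter at day 5 and 11 at day 15, and none was apart at either time. Their medians were -0.10 at day 5 and 0.08 at day 15. Notch1 and Notch2, the widely expressed receptors, were at 11.8 and 19.4 FPKM at day 5, against 9.45 and 14.6 at day 0. Notch4, the receptor of endothelium, was at 0.258 FPKM (0 to 0.572) at day 0, 1.59 (0.297 to 2.89) at day 5 and 0.910 (0.146 to 1.67) at day 15, and the endothelial ligand Dll4 was at 0.223, 1.07 and 0.907. Jag1, a ligand of both epithelium and endothelium, was at 25.4, 17.1 and 29.7, and Heyl, a Notch target of mural cells, at 0.753, 2.86 and 1.82. Intervals overlapped for each of these genes.

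**Figure D2:**
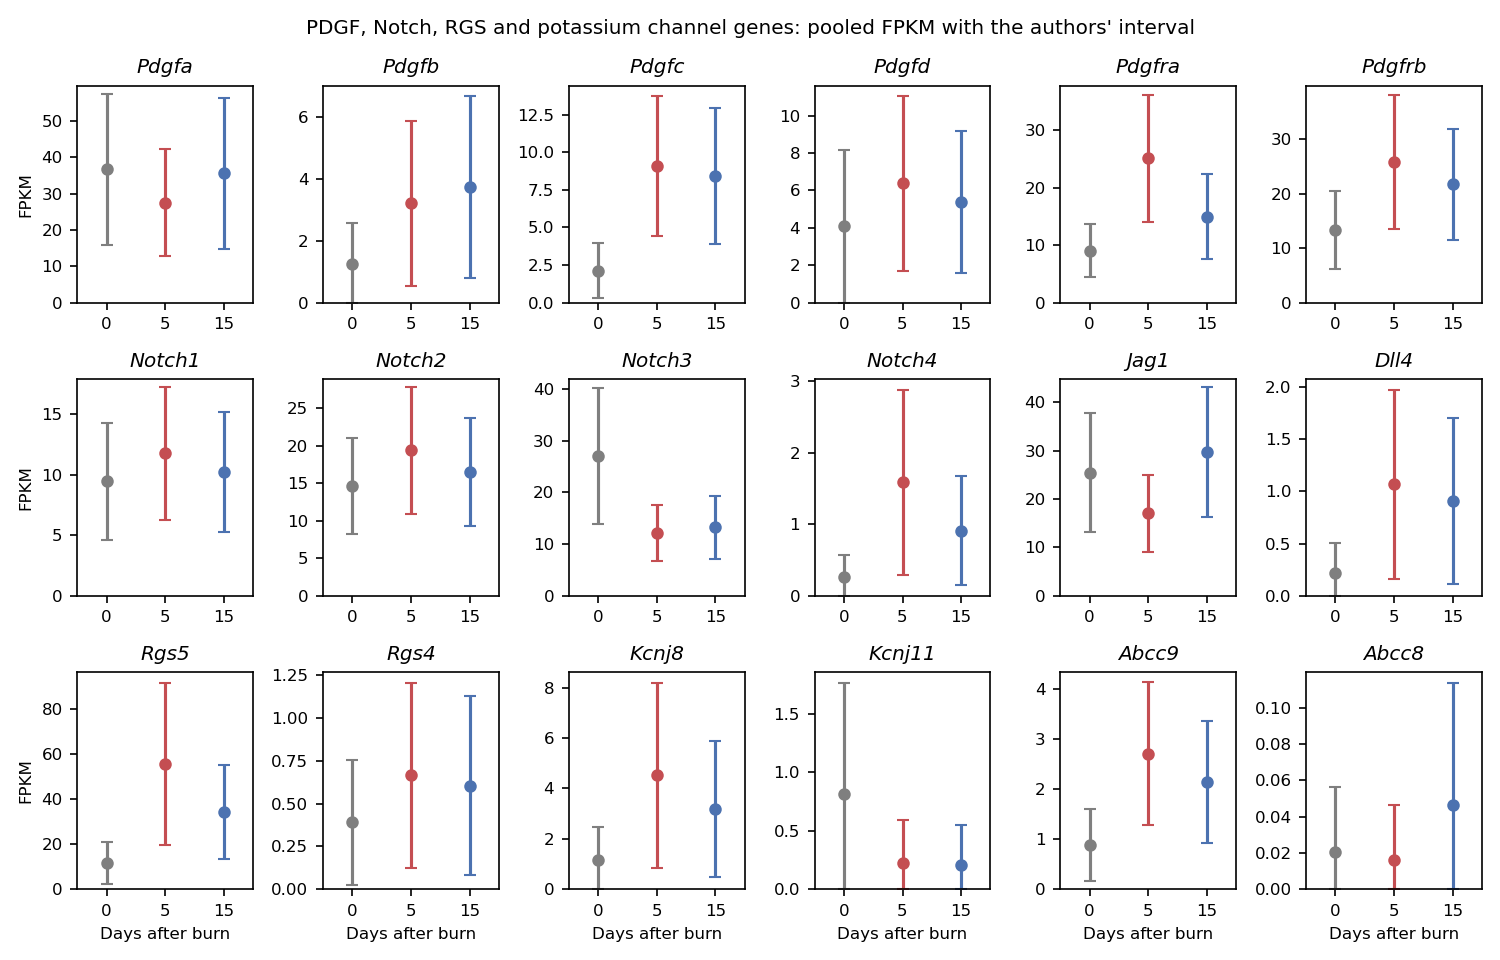
FPKM (y axes, linear, each from 0) of PDGF genes (top row), Notch genes (middle row) and RGS and potassium channel genes (bottom row) in corneas 0, 5 and 15 days after the burn (x axes). Points are the authors' pooled value of 2 samples and bars the authors' interval. Pdgfc and Pdgfra have bars at day 5 that lie above those of day 0, while the bars of Pdgfb, Pdgfrb and Notch3 overlap.

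Kcnj8 and Abcc9 lie side by side on chromosome 6 (142564939 to 142571427 and 142587705 to 142708436) and encode the pore and the regulatory subunit of the ATP-sensitive potassium channel of pericytes and vascular smooth muscle. Kcnj8 had 1.17 FPKM (0 to 2.48) at day 0, 4.53 (0.856 to 8.20) at day 5 and 3.18 (0.477 to 5.88) at day 15. Abcc9 had 0.884 (0.160 to 1.61), 2.71 (1.28 to 4.13) and 2.14 (0.920 to 3.36). Both were low and neither was apart. The pore exceeded the regulatory subunit by 1.32-fold at day 0, 1.67-fold at day 5 and 1.49-fold at day 15. For Abcc9 the interval of the difference between days 5 and 0, 0.224 to 3.42 FPKM, left out 0 and the plain fold was 3.06, but the log2 ratio with the pseudocount of 1 was 0.98, short of the minimum of 1. With a pseudocount of 0.5 it was 1.21. Another annotated gene covers 1.89% of the exon bases of Abcc9. The other subunits of such channels, Kcnj11 and Abcc8, known from pancreatic islets, were below the filter, at or under 0.816 FPKM. Neither of the 2 tested channel genes was called, and their medians were 1.16 at day 5 and 0.84 at day 15.

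Mcam (CD146), an adhesion molecule of mural cells that endothelium also carries (chromosome 9, 44134658 to 44144321), had 1.70 FPKM (0.429 to 2.97) at day 0, 9.18 (4.39 to 14) at day 5 and 7.72 (3.41 to 12.0) at day 15. As for Acta2, both burn groups lay wholly above day 0 and overlapped each other. The value was 5.40-fold higher at day 5, a difference of 7.48 FPKM with an interval of 2.53 to 12.4, and 4.54-fold higher at day 15. Cspg4 (NG2), a proteoglycan of pericytes and of several progenitor cells (chromosome 9, 56865104 to 56900358), was the lowest member, with 0.875 FPKM (0.204 to 1.55) at day 0, 1.42 (0.434 to 2.40) at day 5 and 1.15 (0.361 to 1.94) at day 15. The Cspg4 difference between days 5 and 0 was 0.543 FPKM, with an interval of -0.649 to 1.74.

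Between day 15 and day 5 no member was called. The day 15 value lay below the day 5 value for 8 members and above it for 2, Pdgfb and Notch3, with log2 ratios between -0.68 (Rgs5) and 0.17 (Pdgfb). The median was -0.24, against -0.01 over the 14683 loci tested. Of these loci, 7166 had higher values at day 15, and 0.395% were called higher and 0.388% lower. For Acta2 the difference was -31.0 FPKM with an interval of -93.8 to 31.8, and for Rgs5 -21.3 with one of -63.0 to 20.3. A fall in the values of mural cell genes between these times was thus not detectable with the authors' intervals.

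Since FPKM is scaled to length, levels can be set side by side between genes. Notch3, Tagln and Acta2 led at day 0, and Acta2, Rgs5 and Tagln at day 5, and Acta2, Tagln and Rgs5 at day 15. Cspg4 was last at every time. The place of Tagln is less certain, since 67.9% of its exon bases overlap exons of other genes. Of the stretches of 50 bases in its longest coding transcript, 48.3% also occur in transcripts of other genes. In each group, each member's interval overlapped that of the next gene down in the order, so that no neighbours in the order could be separated. At day 0, 2 members lay below 1 FPKM, and the lower bound was 0 for 3 members at day 0 and for 0 members at days 5 and 15.

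Other pericyte genes mostly had higher values in burned corneas, with few calls. Of 17 such genes, 10 passed the filter at day 5, of which 1 was higher and apart and none was called lower. Values were higher for 9 of these 10, and the median was 0.65. At day 15, 11 passed, none was apart, all 11 had higher values and the median was 0.94. Anpep, the aminopeptidase CD13, was higher and apart at day 5, at 16.8 FPKM (6.35 to 27.2) against 3.34 (0.853 to 5.83) at day 0. Vtn, which encodes vitronectin and marks pericytes of the mouse brain, was at 0.446, 0.396 and 1.34 FPKM over the 3 times, and the pericyte gene Higd1b at 0.805, 2.86 and 1.54. The lower bound was 0 at all 3 times for Higd1b and at days 0 and 5 for Vtn. Ndufa4l2, another gene of this list, had log2 ratios of 1.82 at day 5 and 2.49 at day 15, without being apart at either time.

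The contractile genes of smooth muscle were counted in the same way, and of these 18 genes, 16 passed the filter. At day 5, 2 were higher and apart, no gene was called lower, values were higher for 7 of the 16, and the median was -0.01. At day 15, 3 were higher and apart and the median was 0.09. The shares of all loci called higher in these comparisons were 3.42% and 2.91%. The genes called were Tpm1, a tropomyosin (279 FPKM at day 5 against 49.8 at day 0), Cald1, the actin-binding caldesmon (64.7 against 17.2), and Actg2 at day 15. Tpm1 and Cald1 also have forms in non-muscle cells. Myh11, the myosin heavy chain of mature smooth muscle, was at 2.5 FPKM (0.908 to 4.09) at day 0, 2.1 (0.862 to 3.33) at day 5 and 2.77 (1.33 to 4.22) at day 15. Cnn1, calponin, was at 1.04 (0 to 3.74), 1.20 (0 to 4.98) and 1.33 (0 to 5.13). The 3 intervals overlapped for each of these 2 genes. Des, the intermediate filament desmin, was at 3.13, 2.64 and 0.758. Myocd, the coactivator of the smooth muscle programme, was at 0.125, 0.259 and 0.143, below the filter.

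**Figure D3:**
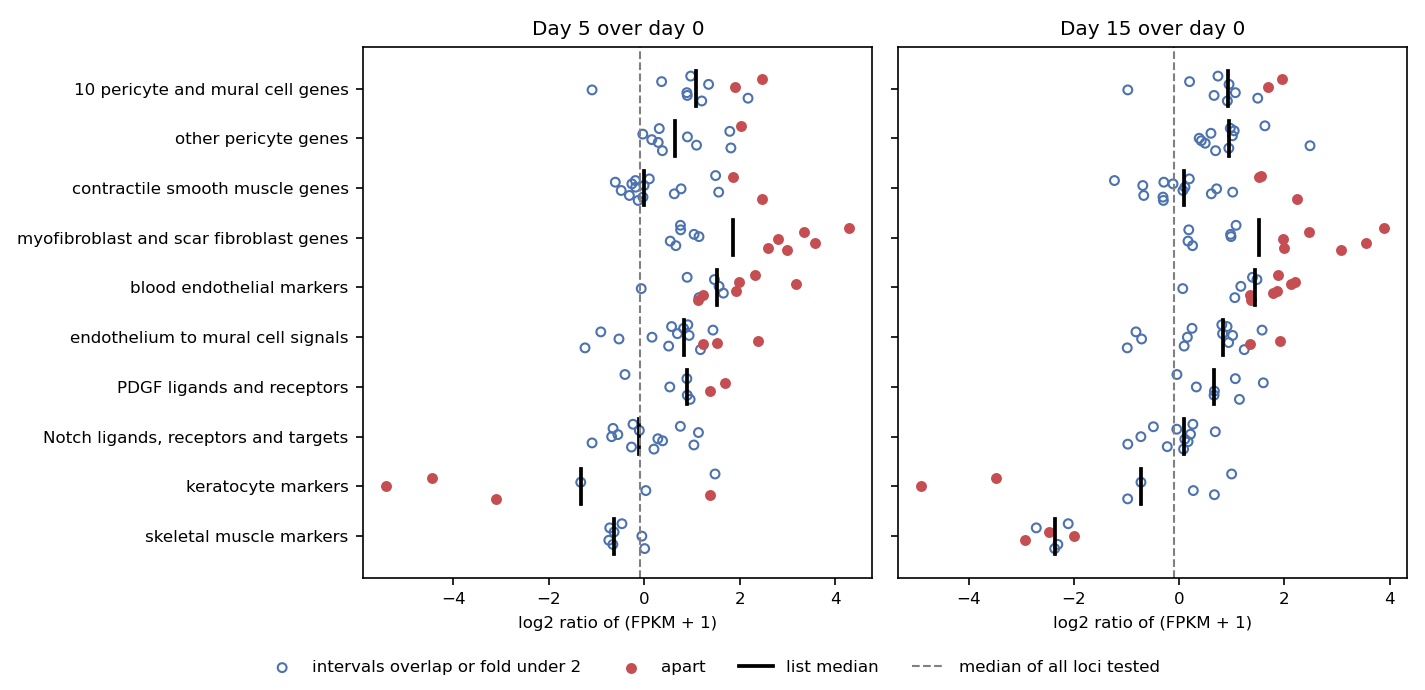
Log2 ratio of (FPKM + 1) for each gene that passed the filter, by gene list (rows), for day 5 over day 0 (left) and day 15 over day 0 (right). Filled points are apart, open points are not, black bars are list medians and the dashed line is the median of all loci tested. The 10 pericyte and mural cell genes have medians of 1.09 and 0.93, and the contractile smooth muscle genes have medians of -0.01 and 0.09.

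Genes of other cells that can express the members also differed between these groups, and their part in the members' values was not tested. Of 12 myofibroblast and scar fibroblast genes, 6 were higher and apart at day 5 and at day 15, and all 12 had higher values at both times, with medians of 1.87 and 1.52. They included the collagen gene Col3a1 (19.9-fold at day 5), the matrix genes Postn (12.5-fold) and Tnc (8.57-fold), and Cthrc1 (10.7-fold). Of 12 blood endothelial markers, 6 were higher and apart at day 5 and 7 at day 15, with medians of 1.52 and 1.44. The largest ratios among them at day 5 were those of Erg, Cdh5, Emcn and Pecam1. Pecam1 stood at 1.11 FPKM (0.313 to 1.90) at day 0, 7.06 (3.81 to 10.3) at day 5 and 6.70 (3.52 to 9.88) at day 15, and Cdh5 at 0.878, 8.37 and 5.90. Of 15 genes that signal between endothelium and mural cells, 3 were higher and apart at day 5 (S1pr1, S1pr3 and Tek) and 2 at day 15 (S1pr1 and Tek), with medians of 0.83 and 0.82. Angpt1, the Tie2 ligand that pericytes secrete, was at 1.59, 2.85 and 3.86 FPKM and was not apart.

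Each member was also set against Pecam1 within the same group, as a ratio of FPKM with no test. Acta2 was 15.5 times Pecam1 at day 0, 14.1 times at day 5 and 10.3 times at day 15, and for Mcam these ratios were 1.53, 1.30 and 1.15. For Pdgfrb they were 12.0, 3.66 and 3.24, and for Notch3 24.4, 1.72 and 1.97. All 10 ratios were lower at both burn times than at day 0, over a day 0 Pecam1 value near 1 FPKM whose interval spans 0.313 to 1.90. Pecam1 was itself among the endothelial markers with the largest ratios at day 5, so this result holds for Pecam1 and not for endothelial markers as a list. At day 5 the log2 ratios of Acta2 (2.48), Rgs5 (2.18) and Mcam (1.91) lay above the endothelial list median of 1.52. Those of all other members lay below it.

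**Figure D4:**
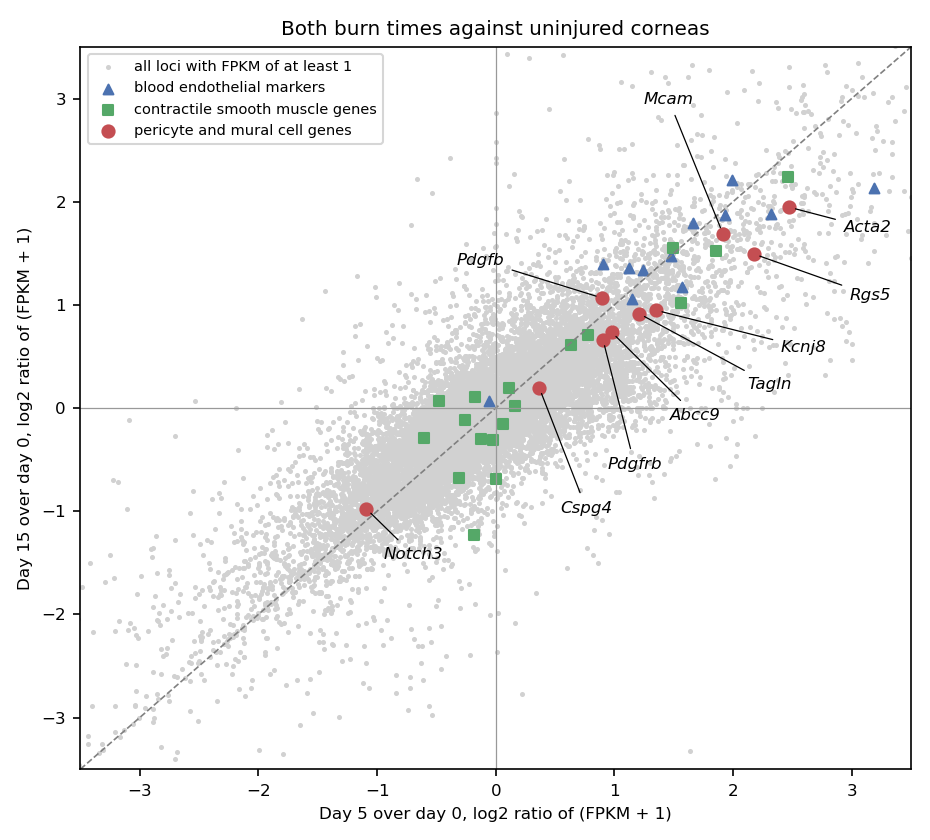
Log2 ratio of (FPKM + 1) for day 5 over day 0 (x axis) and day 15 over day 0 (y axis) for loci with FPKM of at least 1 in any group and an OK status at day 0 (grey), blood endothelial markers (triangles), contractile smooth muscle genes (squares) and the pericyte and mural cell genes (circles, named). Both axes share the day 0 group, and 191 of 15900 loci lie outside the plotted range. Acta2, Rgs5 and Mcam lie among the endothelial markers, and Notch3 lies alone at the lower left among the named genes.

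Lists for other cell types were counted in the same way. Among 7 macrophage markers tested, 3 were higher and apart at day 5 (Cd14, Lyz2 and Mrc1) and 5 at day 15 (these, Emr1 and Aif1), with medians of 1.36 and 1.99. Pf4, a platelet and macrophage chemokine, was 11.8-fold higher at day 5 and apart at both times, while the platelet genes Gp9 and Gp6 were listed at 0 at days 0 and 5, and 2 platelet genes in all passed the filter (medians 1.15 and 1.04). Of 7 keratocyte markers tested, 3 were lower and apart at day 5 (Kera, Chst5 and Ptgds) and 1, Pdgfra, was higher. Kera and Chst5 were lower and apart at day 15 as well, and the medians were -1.33 and -0.73. Among 5 tested Schwann cell markers S100b (medians -0.28 and -0.41), and among 6 melanocyte markers Tyrp1 (medians -1.65 and -0.45), was lower and apart at day 5, and none of either list at day 15. Of 7 skeletal muscle markers tested, none was apart at day 5, and Myl1, Ckm and Myh2 had lower, apart values at day 15 (medians -0.63 and -2.37). None of 10 reference genes was apart, with medians of 0.35 and 0.26. The actin family had medians of 0.04 and 0.10 and the transgelin family of 1.36 and 0.92.

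For the 6 members that reached 5 FPKM in some group, the 3 loci nearest in the plane of both log2 ratios to day 0 were sought among 8846 other named loci with FPKM of at least 5 in some group. With 3 group values per gene, likeness is weak, and the ratios share the day 0 group. Nearest to Acta2 were Fst (follistatin, an activin antagonist), Alox15 and S1pr1, at distances of 0.0316 to 0.0919, and 3 loci in all lay within 0.1. Nearest to Rgs5 were Nedd9, Neurl3 and Selplg, and nearest to Mcam were Soat1, Ugcg and Ptafr. Nearest to Notch3 was Yap1, the transcriptional coactivator of the Hippo pathway, at 50.7, 23.5 and 25.3 FPKM over the 3 times, followed by Gbe1 and Ntn1, and 40 loci lay within 0.1. Pdgfrb had Nfib, Immt and Sorbs3, and Tagln had Ppm1m, Arhgap31 and Serpine2. None of the other members was among these neighbours.

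The study's title names miR-204, so 3' UTRs were searched for the 7 bases that pair with bases 2 to 8 of miR-204-5p. For each gene the 3' UTR of its longest coding transcript was used, and other 3' UTRs were not searched. Pdgfb and Tagln had 1 match each, 2 of 10 members, against 14.9% of 20901 genes. The mature microRNA is shown with its seed in capitals, and the sites with the match in capitals, as the messenger strand of the GENCODE M21 transcript (RefSeq for the microRNA, on GRCm38.p6).
miR-204-5p: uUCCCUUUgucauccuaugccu
Pdgfb, from 3' UTR base 915 for the match: aaacctctgaggAAAGGGAaccttgttt
Tagln, from 3' UTR base 1 for the match: AAAGGGAaggccagcc
Both genes were among the 9 of 10 members with higher values at day 5 than at day 0, and neither was apart. Members without a match thus mostly had the same direction. The match in Tagln directly follows the stop codon. A match of letters is not a measured site.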

How the data were processed

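The authors deposited 1 Cuffdiff gene table for the series, in FPKM, with a pooled value, interval bounds and a status per group, per the file headers. Cufflinks 2.2.1, Cuffdiff, Bowtie2 2.2.6, TopHat2 2.1.0 and build mm10 are listed in the submitters' processing notes; the annotation and any scaling between libraries are not given in the sources used here. The labels do not say whether the replicates of a group were different animals. Precision therefore rests on the authors' intervals, and depth per sample is unknown. At FPKM of at least 5, the upper bound lay a median 54.3%, 52.9% and 52.3% above the value at days 0, 5 and 15.

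The call was applied to all loci with status OK whose higher group reached 1 FPKM. The design named limma only for values per sample, which the table does not hold. For a symbol with several loci, the one with the highest mean was used, and list genes whose locus names another gene (microRNAs aside) were left out. The members, 18 further lists, calls and searches were chosen with earlier results of these data known. Most named genes are the members, up to 4 apart genes per list with the largest ratios, a fixed set of pathway genes, and the 3 nearest loci. Further list genes were named outside these rules, among them Higd1b, Ndufa4l2, Myocd, Rgs4, Notch1, Notch2, Acta1 and Actb. Starts were shifted to 1-based coordinates and compared with GENCODE M21 (GRCm38). Python 3.11.15, numpy 2.4.6, pandas 2.3.3 and matplotlib 3.10.9 were used. Alternatives varied the pseudocount, filter, fold, interval rule and scaling.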

Additional observations from a re-analysis of the deposited data

How the results depend on the processing

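No paired analysis was possible because the table has 1 pooled column per group; for the same reason leaving out a sample was not run. Over the pseudocounts 0.1 and 0.5, no FPKM minimum and a minimum of 5, no fold minimum, and both rescalings, the counts of members apart stayed within 1.5 times of those reported. Each member kept its direction in all 100 values per comparison, which cover all settings. Only the rescalings could have changed a direction, since the other settings leave the sign of a ratio fixed. With a 4-fold minimum, 1 member was higher and apart at day 5 (Acta2) and 0 at day 15, where 1.98% and 1.53% of all loci were. With the fold alone and no interval rule, 5 members were higher and 1 lower at day 5, where 10.8% and 11.1% of all loci were, and 4 were higher at day 15, where 8.36% were. With the interval of the difference, 1 member, Notch3, was lower at day 5, where 4.76% of all loci were. The cause was not tested, except that the stricter fold removes calls and the looser interval rules add them by construction. The median of all loci at day 5 was 0.01 after rescaling by the median ratio, against -0.09 as deposited. Wide intervals limit all of this. At day 0 the upper bound lay a median 78.2% above the value among the members. Genes near 1 FPKM could differ severalfold without being called.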
